A study of Mus musculus with 5 samples.

Results

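Histone genes make up the set described here. It holds 82 of the 23234 genes listed for each library, chosen by symbol alone. The 68 genes whose symbol starts with Hist and a digit are called the replication-dependent histone genes here. The 14 genes whose symbol starts with H1f, H2af or H3f are called the variant histone genes. How each member is regulated was not checked, and Hist3h2bb-ps is by its symbol a pseudogene. The data were 5 RNA-seq libraries of cells sorted from mouse BM, 1 for each population. All mice were 7 weeks old, C57BL/6, and carried 1 Venus reporter allele of the Ym1 gene (+/Ym1Venus), controls included. Ym1+Ly6Chi and Ym1-Ly6Chi monocytes (Ly6C+CD115+ cells with or without Venus) and Ly6G+ neutrophils were taken 48 h after an intravenous injection of 100 µg of LPS per mouse, and naïve monocytes (Venus-) and naïve neutrophils came from untreated mice. The Venus gate was set by the reporter and not by the protein, and the sources used here do not give the number of mice behind a library.

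Chromatin is wrapped around octamers of the core histones H2A, H2B, H3 and H4, with H1 bound at the linker. Replication-dependent histone genes lie in clusters, have no introns, and are transcribed mainly in S phase, when new DNA has to be packaged. Their mRNAs end in a conserved stem-loop in place of a poly(A) tail, which the stem-loop binding protein SLBP recognises, although some of them also give polyadenylated forms in differentiated cells. Variant histone genes lie outside the clusters, are transcribed throughout the cell cycle, end in a poly(A) tail, and replace the replication-dependent proteins at promoters, at damaged DNA or in cells that have stopped dividing.

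Values are FPKM, fragments scaled by the length of the transcript and by the mapped fragments of the library, so that levels can be compared between genes. Differences are given on the log2(FPKM + 1) scale, which understates differences of low genes, and only genes that reached an FPKM of 1 in either of the libraries compared were tested. With 1 library per population there was no replicate check and no test. A count therefore means that genes passed a 2-fold difference, and is set beside the percentage of all genes tested that did so. The steps between low FPKM values put the depth at about 4560000 fragments for Ym1-Ly6Chi monocytes, the shallowest library, and between 6360000 and 10200000 fragments for the others. A single fragment on a transcript of 500 nt was then worth an FPKM of 0.288 to 0.645. Intervals given with ratios are 95% exact (Clopper-Pearson) intervals for these estimated fragments. They cover counting error only and not the spread between mice. Chi3l3, the gene of Ym1, was listed at 1759 FPKM in Ym1+Ly6Chi and 386 FPKM in Ym1-Ly6Chi monocytes, in the order of the gate. The 6 monocyte markers (Csf1r, Ccr2, Ly6c2, Irf8, Klf4 and F13a1) summed to 4455 to 5194 FPKM in the monocyte libraries and to 1416 and 1636 FPKM in the neutrophil libraries, most of it Ly6c2. The 8 neutrophil markers summed to 182465 FPKM in naïve and 182295 FPKM in LPS neutrophils and to 8836, 1301 and 927 FPKM in Ym1+Ly6Chi, Ym1-Ly6Chi and naïve monocytes. S100a8 was the largest part of this sum in every library. These are sorted populations measured in bulk, so that fewer cells of a kind and less RNA per cell cannot be told apart.

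The stem-loop is the mark that sets the replication-dependent mRNAs apart, and it is shown for members that the results turn on. A search of the GENCODE M21 transcripts for a stem of 6 bases from GG to T, a loop of 4 bases that opens with TT, and the complementary stem found it in 44 of the 68 replication-dependent members. Of all 21877 protein-coding genes, 69 (0.315%) held it, of which 24 were not members. Among the 14 variant genes it was found in H2afx alone, a gene known to give both stem-loop and polyadenylated mRNAs. In the following runs the capitals mark the stem and the loop, with 5 bases on either side.
Hist1h1c: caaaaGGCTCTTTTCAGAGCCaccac
Hist2h2aa2: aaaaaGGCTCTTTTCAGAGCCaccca
Hist2h2ac: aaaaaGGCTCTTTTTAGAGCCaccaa
Hist1h3c: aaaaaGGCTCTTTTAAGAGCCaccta
Hist1h4c: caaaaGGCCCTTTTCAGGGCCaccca
H2afx: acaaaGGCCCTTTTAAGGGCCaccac
Hist1h1c and Hist2h2aa2 carried the same stem and loop, and H2afx and Hist1h4c had a stem of the same letters. In H2afx the annotated transcript ran on for 822 nt after the stem-loop, and in Hist1h1c for 840 nt, against 35 nt in Hist2h2aa2 and 57 nt in Hist2h2ac. A poly(A) signal (AATAAA or ATTAAA in the last 45 nt) was found in 17 of the 68 replication-dependent and in 11 of the 14 variant members. The annotation may be shortened in places, so a missing match says only that these letters are not in the annotated transcript.

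Near-identical copies limit what single members can say. In the replication-dependent genes a median of 46.4% of the 50-base words of a transcript also occurred in another member, and 30 of the 68 shared at least 50% of them. In the variant genes the median was 0. Every 50-base word of Hist2h2aa2 occurred in Hist2h2aa1, so reads of this pair can be split between the copies in any proportion, and the pair is also given as a sum. Sums over a class of histone depend less on how reads were split, though copies differ in length and some words are shared between classes. The sources used here do not say whether RNA was selected by poly(A) tail, and how well transcripts without a tail were captured was not tested.

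Variant histone genes carried most of the histone mRNA signal in every library. The 14 variant genes summed to 2874, 2961 and 3072 FPKM in Ym1+Ly6Chi, Ym1-Ly6Chi and naïve monocytes, and to 2040 and 2101 FPKM in LPS and naïve neutrophils. The 68 replication-dependent genes summed to 302, 249 and 307 FPKM in the same monocyte libraries, and to 182 and 373 FPKM in LPS and naïve neutrophils. Variant genes therefore made up 90.5% to 92.2% of the summed histone FPKM in 4 libraries and 84.9% in naïve neutrophils. Of the 82 members, 21 reached an FPKM of 10 in any library, 8 of them variant and 13 replication-dependent. Below an FPKM of 1 in every library were 4 variant and 2 replication-dependent members. H1fnt, H1foo and H2afb1, which are forms of germ cells, were listed at 0 in all 5 libraries.

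H3f3a and H3f3b, which both encode the replacement histone H3.3, were the steadiest of the abundant members between cell types on the FPKM scale. Median-of-ratios scaling shifts log2 ratios of naïve neutrophils to naïve monocytes by 0.70, so this steadiness depends on the scale. H3f3a was at 959, 925 and 1282 FPKM in Ym1+Ly6Chi, Ym1-Ly6Chi and naïve monocytes, and at 1193 and 1269 FPKM in LPS and naïve neutrophils. H3f3b was at 432, 413 and 347 FPKM in these monocytes, and at 260.08 and 328 FPKM in LPS and naïve neutrophils. Together they made up 98.5% to 99.6% of the summed FPKM of H3 genes in each of the 5 libraries.

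The abundant H2A variants were lower in neutrophils on the FPKM scale. H2afz encodes H2A.Z, which sits at promoters, and it was at 803, 846 and 671 FPKM in Ym1+Ly6Chi, Ym1-Ly6Chi and naïve monocytes, against 356 and 312 FPKM in LPS and naïve neutrophils. H2afy encodes macroH2A1, a variant linked to silent chromatin, and it was at 365, 499 and 411 FPKM in these monocytes, against 115 and 78.6 FPKM in LPS and naïve neutrophils. H2afx encodes H2A.X, which is phosphorylated at DNA breaks, and it was at 157, 117 and 166 FPKM in the monocytes and at 47.1 and 46.2 FPKM in LPS and naïve neutrophils. Over all genes tested, the median difference of naïve neutrophils from naïve monocytes was itself -0.79 on the log2(FPKM + 1) scale. Of these genes 42.7% were at least 2-fold lower. How many of all genes were lower in both neutrophil libraries than in every monocyte library was not counted. H2afv, a second gene of H2A.Z, was at 63.1, 66.6 and 72.3 FPKM against 23.4 and 21.8 FPKM in the same order. H2afj, an H2A variant reported in ageing cells, was at 33.5, 44.4 and 52.2 FPKM in Ym1+Ly6Chi, Ym1-Ly6Chi and naïve monocytes. It was at 23.0 and 33.2 FPKM in LPS and naïve neutrophils, so that naïve neutrophils lay next to Ym1+Ly6Chi monocytes.

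**Figure D1:**
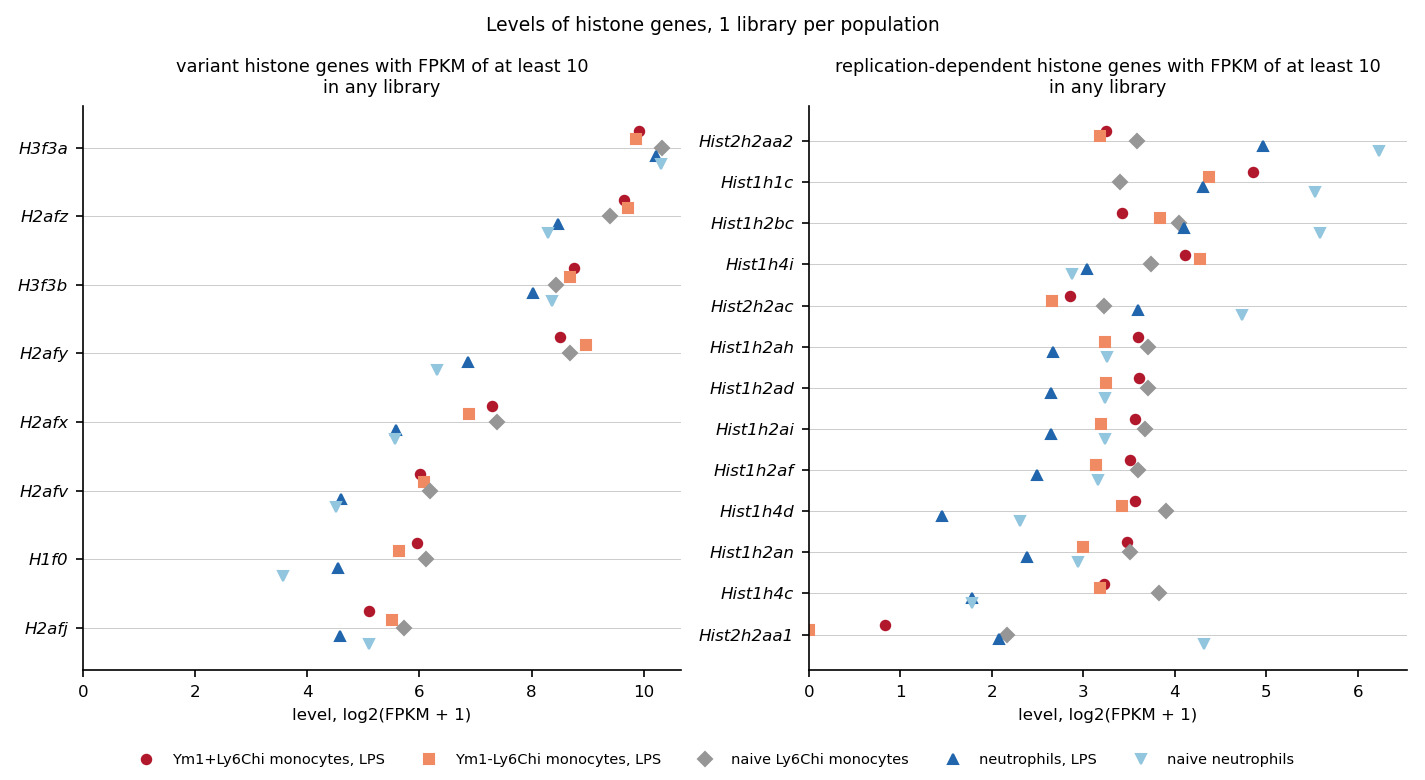
Levels on the log2(FPKM + 1) scale (x axis) of the 8 variant genes (left) and 13 replication-dependent genes (right) that reached an FPKM of 10 in any library (y axis, ordered by mean FPKM), with 1 point per library. H3f3a and H3f3b lie close together across all libraries, the other variants lie lower in neutrophils, with naïve neutrophils next to Ym1+Ly6Chi monocytes for H2afj, and Hist2h2aa1, Hist2h2aa2, Hist2h2ac, Hist1h1c and Hist1h2bc lie highest in naïve neutrophils.

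Among linker histones the leading gene was Hist1h1c in naïve neutrophils and H1f0 in every other library. H1f0 encodes H1.0, the linker histone known from cells that have stopped dividing, and it was at 61.5, 48.5 and 68.4 FPKM in Ym1+Ly6Chi, Ym1-Ly6Chi and naïve monocytes, against 22.3 and 10.8 FPKM in LPS and naïve neutrophils. Hist1h1c encodes the replication-dependent H1.2, and it was at 27.8, 19.7 and 9.58 FPKM in these monocytes, against 18.8 and 45.3 FPKM in LPS and naïve neutrophils. H1f0 thus stood above Hist1h1c in every library but that of naïve neutrophils, where the order was turned. Variant genes made up 80.9% of the summed H1 FPKM in naïve monocytes, 67.1% in Ym1+Ly6Chi and 69.1% in Ym1-Ly6Chi monocytes, 53.6% in LPS neutrophils and 18.8% in naïve neutrophils. The other 5 replication-dependent H1 genes were low, with Hist1h1b the highest of them at 3.90 FPKM in naïve monocytes and listed at 0 in naïve neutrophils. For H2A the variant share was 91.2% to 94.4% in monocytes, 85.9% in LPS neutrophils and 71.6% in naïve neutrophils. Such shares compare genes of 1 library and are not changed by the scaling between libraries.

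**Figure D2:**
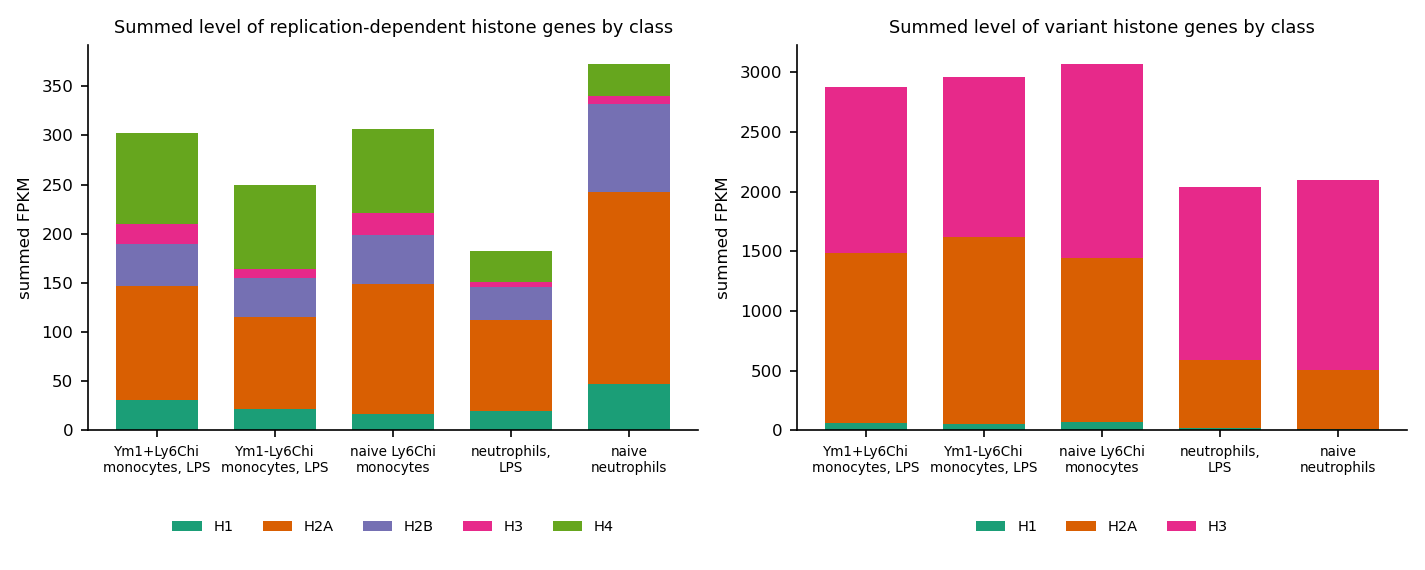
Summed FPKM (y axis, from 0) of replication-dependent (left) and variant (right) histone genes in the 5 libraries (x axis), stacked by class of histone, with separate scales. Replication-dependent H2A, H2B and H1 are highest in naïve neutrophils and H4 and H3 are lower in both neutrophil libraries than in any monocyte library, while variant H3 is of like height in all 5 and variant H2A is lower in neutrophils.

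Naïve neutrophils were compared with naïve monocytes, and the replication-dependent classes went in opposite directions. Summed H1 was 2.85-fold higher in neutrophils (46.8 against 16.4 FPKM, log2 ratio 1.51, interval 1.25 to 1.78). Summed H2B was 1.78-fold higher (89.5 against 50.1 FPKM, log2 ratio 0.84, interval 0.62 to 1.06), and summed H2A 1.48-fold higher (196 against 132 FPKM, log2 ratio 0.57, interval 0.38 to 0.76). Summed H3 was instead 2.87-fold lower (7.93 against 22.7 FPKM, log2 ratio -1.52, interval -2.01 to -1.04), and summed H4 2.59-fold lower (32.9 against 85.3 FPKM, log2 ratio -1.37, interval -1.65 to -1.10). The replication-dependent mRNAs of the core histones, which are needed in equal amounts in a nucleosome, thus differed in direction by class. TPM scaling shifts every log2 ratio of this comparison by -0.41 and median-of-ratios scaling by 0.70, and neither shift turns the direction of any of these 5 sums. The TPM shift is larger than the lower limit of the H2A interval (0.38), so that under it H2A lay within counting error. The variant sum was lower in naïve neutrophils (2101 against 3072 FPKM, log2 ratio -0.55), but stood at 0.16 under median-of-ratios scaling.

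The higher sums held 5 members that reached an FPKM of 10 in naïve neutrophils, a group chosen by that value after it had been seen. Without them H1 summed to 1.55 FPKM in naïve neutrophils and 6.85 FPKM in naïve monocytes, H2A to 77.5 against 109 FPKM and H2B to 42.6 against 34.7 FPKM. Hist2h2aa2 was at 73.8 FPKM in naïve neutrophils and at 30.1 FPKM in LPS neutrophils, against 8.51, 8.06 and 11.0 FPKM in Ym1+Ly6Chi, Ym1-Ly6Chi and naïve monocytes. Together with its copy Hist2h2aa1 it summed to 92.7 and 33.3 FPKM in naïve and LPS neutrophils and to 9.29, 8.06 and 14.5 FPKM in these monocytes. Both genes encode the same H2A type, and as a sum they were 6.38-fold higher in naïve neutrophils than in their monocyte counterpart (log2 ratio 2.67, interval 2.17 to 3.22). Hist2h2ac, another H2A gene of the Hist2 cluster, was at 25.5 FPKM in naïve and 11.1 FPKM in LPS neutrophils, against 6.20, 5.29 and 8.38 FPKM in the monocytes. Hist1h2bc, an H2B gene, was at 46.9 FPKM in naïve and 16.1 FPKM in LPS neutrophils, against 9.71, 13.3 and 15.5 FPKM in the monocytes. With Hist1h1c, given above, these 5 members summed to 210 FPKM in naïve neutrophils, or 56.4% of all replication-dependent FPKM, and to 79.4 FPKM (43.6%) in LPS neutrophils. In Ym1+Ly6Chi, Ym1-Ly6Chi and naïve monocytes they summed to 53.0, 46.4 and 47.9 FPKM, or 17.5%, 18.6% and 15.6%. The other 63 members summed to 162 FPKM in naïve neutrophils and 259 FPKM in naïve monocytes. Because the 5 were picked by their level in naïve neutrophils, their larger share there and the contrast with the other 63 follow in part from that choice and are a description only. Markers of other cells also differed between these libraries. The 4 platelet markers summed to 51.0 FPKM in naïve neutrophils and 11.7 FPKM in naïve monocytes, all 4 of them at least 2-fold higher, and the 3 eosinophil markers to 5.27 against 0.240 FPKM. The 5 stem and progenitor markers summed to 7.85 against 31.0 FPKM, and their part in the histone values was not tested.

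**Figure D3:**
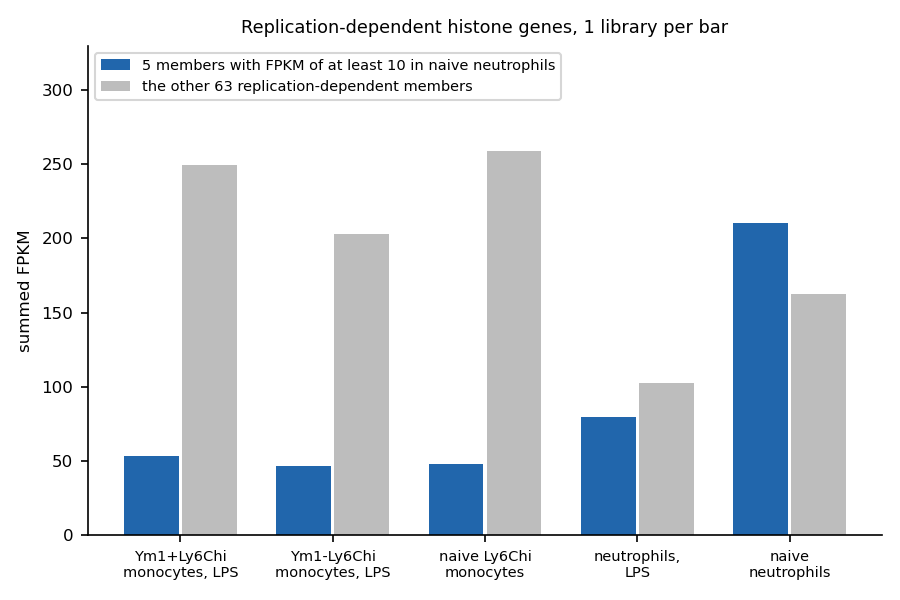
Summed FPKM (y axis, from 0) in the 5 libraries (x axis) of the 5 replication-dependent members that reached an FPKM of 10 in naïve neutrophils (blue) and of the other 63 (grey). The blue bar exceeds the grey bar in naïve neutrophils alone (210 against 162 FPKM), the library by whose values the 5 were chosen.

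Counted gene by gene, 10 of the 64 replication-dependent members tested were at least 2-fold higher in naïve neutrophils, 5 of them from the group above, against 10.8% of all genes tested, and 20 were at least 2-fold lower, against 42.7%. Of the 10 variant members tested, 6 were at least 2-fold lower and 0 higher, against 53.6% of all genes in either direction. In either direction 46.9% of the replication-dependent members tested were called, against the same 53.6%. The 6 variant genes were H1f0, H1fx, H2afv, H2afx, H2afy and H2afz. The median difference over all genes was itself -0.79 in this comparison and -0.16 when libraries were scaled by the median of ratios. The median was -0.46 over the replication-dependent and -1.13 over the variant members, so that relative to all genes the former lay higher and the latter lower. H1f0, at -2.55 on the log2(FPKM + 1) scale, and H2afy, at -2.37, lay furthest below the median of all genes, while H3f3a (-0.01) and H3f3b (-0.08) lay above it. H2afz, at -1.10, was at -0.40 under median-of-ratios scaling and no longer past 2-fold. Under that scaling 13 replication-dependent members were higher and 7 lower, where the unscaled split was 10 to 20, and over all genes 42.6% of calls were higher where the unscaled share was 20.2%. Among the lower members were 8 of 13 H4 genes, with Hist1h4c at 2.44 against 13.2 FPKM and Hist1h4d at 3.96 against 13.9 FPKM, and 5 of 11 H3 genes. By location, the 10 genes of the Hist2 cluster summed to 131 FPKM in naïve neutrophils and 41.8 FPKM in naïve monocytes (3.13-fold, log2 ratio 1.65, interval 1.39 to 1.91), while the 54 genes of the Hist1 cluster summed to 239 and 258 FPKM. In the Hist2 cluster 3 members were at least 2-fold higher and 3 lower, and without Hist2h2aa1, Hist2h2aa2 and Hist2h2ac, which were chosen for their level there, the cluster summed to 12.5 against 18.9 FPKM.

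Promoters are printed for Hist1h1c, Hist2h2aa1 and Hist2h2ac, which were high in naïve neutrophils and lower after LPS in neutrophils. The promoter of H3f3b, which stayed nearly level between naïve cells on the FPKM scale, is printed as well. The RefSeq windows cover 250 bases before and 50 after the start of the gene on GRCm38.p6, which is not the build of the files, at chr13:23738557-23738856 (+ strand) for Hist1h1c, chr3:96245247-96245546 (+) for Hist2h2aa1, chr3:96220831-96221130 (-) for Hist2h2ac and chr11:116024455-116024754 (-) for H3f3b. Of the 82 members, 72 had such a window. The capitals mark matches, on either strand, to the TATA box (TATAAA), the CCAAT box (CCAAT), the octamer bound by Oct1 (ATTTGCAT) and the H1 box (AAACACAA).
Hist1h1c: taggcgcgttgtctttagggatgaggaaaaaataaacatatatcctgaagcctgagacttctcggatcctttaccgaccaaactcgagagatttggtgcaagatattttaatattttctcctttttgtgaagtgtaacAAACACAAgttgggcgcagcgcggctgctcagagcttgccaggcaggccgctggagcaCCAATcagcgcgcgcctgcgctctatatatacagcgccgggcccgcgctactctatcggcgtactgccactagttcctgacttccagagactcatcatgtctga
Hist2h2aa1: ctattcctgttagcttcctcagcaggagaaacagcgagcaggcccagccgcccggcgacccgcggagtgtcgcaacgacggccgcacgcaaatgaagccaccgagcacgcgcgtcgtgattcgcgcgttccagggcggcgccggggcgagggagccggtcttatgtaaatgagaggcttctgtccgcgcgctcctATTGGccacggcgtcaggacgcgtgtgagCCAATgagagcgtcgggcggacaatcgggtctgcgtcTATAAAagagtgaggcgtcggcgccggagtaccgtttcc
Hist2h2ac: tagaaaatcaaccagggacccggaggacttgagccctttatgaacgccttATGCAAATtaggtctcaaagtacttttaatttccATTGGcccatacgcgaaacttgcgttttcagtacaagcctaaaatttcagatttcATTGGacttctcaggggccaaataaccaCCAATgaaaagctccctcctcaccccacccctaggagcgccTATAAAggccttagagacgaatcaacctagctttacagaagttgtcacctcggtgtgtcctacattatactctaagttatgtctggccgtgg
H3f3b: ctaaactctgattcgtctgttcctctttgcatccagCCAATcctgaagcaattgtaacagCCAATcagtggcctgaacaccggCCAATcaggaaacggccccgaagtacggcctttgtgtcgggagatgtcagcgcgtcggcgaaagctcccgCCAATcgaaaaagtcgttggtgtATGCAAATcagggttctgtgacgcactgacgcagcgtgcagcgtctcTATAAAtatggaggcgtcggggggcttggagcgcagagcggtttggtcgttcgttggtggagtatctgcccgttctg
The CCAAT box was found in 52 of 61 replication-dependent windows, against 37.4% of all 32851 RefSeq windows, and it was present in every H1, H2A, H2B and H3 window but in only 3 of 12 H4 windows. The TATA box was found in 35 of the 61, against 13.6% of all windows, and the octamer in 14 of the 61, against 1.74%. All 14 octamers lay in H2A genes (7 of 17) and H2B genes (7 of 16), though 9 pairs of members have windows that overlap each other and share matches. The H1 box was found in 4 of 6 H1 windows, Hist1h1c included, against 1.93% of all windows. It was also found in 1 of 17 H2A and 1 of 16 H2B windows. Of the 11 variant windows, 1 held TATAAA and 1 the octamer, both in H3f3b, 1 the H1 box (H3f3a), and 7 held CCAAT. The windows of Hist2h2aa1 and Hist2h2aa2 had 256 of 300 bases in common (85.3%) in their best alignment. The Hist2h2aa2 window ends just before the place where that of Hist2h2aa1 has TATAAA. This share, and the lack of a TATAAA match in Hist2h2aa2, therefore depend on where the windows were set. No match in a window says nothing of what binds there, and no link between these letters and the levels was tested.

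Neutrophils 48 h after LPS were compared with naïve neutrophils, and replication-dependent histone mRNA was lower after LPS. The sum over the 68 genes was 182 FPKM after LPS and 373 FPKM in naïve cells, 2.05-fold lower (log2 ratio -1.03, interval -1.15 to -0.92). Of 49 members tested 9 were at least 2-fold lower, against 5.35% of all genes tested, and 0 were at least 2-fold higher, against 8.96%. The median difference was -0.57 over these members and 0.07 over all genes. With TPM scaling the median over all genes was -0.05 and 51.1% of all calls were higher, where the unscaled share was 62.6%, and 15 replication-dependent members were lower and 1 higher. In the variant genes 0 of 8 tested passed 2-fold in either direction, against 14.3% of all genes, and their sum was 2040 against 2101 FPKM (log2 ratio -0.04).

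All 5 members that were high in naïve neutrophils were among the 9. They had been picked by their level in the naïve library, which is the baseline here, so their lower values after LPS and the contrast with the other 63 are set in part by that choice and are a description only. Hist1h2bc was 2.91-fold lower after LPS (log2 ratio interval -1.83 to -1.26), Hist1h1c 2.41-fold lower (interval -1.50 to -1.04), Hist2h2ac 2.30-fold lower (interval -1.82 to -0.61) and the pair Hist2h2aa1 and Hist2h2aa2 2.78-fold lower as a sum (interval -1.81 to -1.15). As a group they summed to 79.4 against 210 FPKM (2.65-fold lower), and the other 63 to 103 against 162 FPKM (1.58-fold lower, log2 ratio -0.66, interval -0.84 to -0.49). The others of the 9 were Hist1h2be, Hist1h4m and the pair Hist1h2bq and Hist1h2br, all low. The pair summed to 9.15 FPKM in naïve neutrophils and to 0.443 to 0.617 FPKM in the other 4 libraries, where it rested on very few fragments. By class, summed H2B was 2.64-fold, H1 2.41-fold and H2A 2.12-fold lower, H3 was 1.54-fold lower (log2 ratio -0.63, interval -1.24 to -0.03), and H4 was at 31.1 against 32.9 FPKM, within counting error. H1f0 went the other way, from 10.8 FPKM in naïve to 22.3 FPKM in LPS neutrophils, a difference of 0.98 on the log2(FPKM + 1) scale that stopped just short of 2-fold there, with a ratio of 2.06 on the FPKM scale. H2afy was 1.46-fold higher after LPS (115 against 78.6 FPKM, log2 ratio interval 0.33 to 0.78), and H3f3b 1.26-fold lower.

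Markers of other cells also differed between the neutrophil libraries, in both directions. The 4 platelet markers summed to 51.0 FPKM in naïve neutrophils and 4.99 FPKM after LPS, with Ppbp at 27.3 against 0.539 FPKM and Pf4 at 16.9 against 0.922 FPKM, and 3 of 4 were at least 2-fold lower after LPS. Of the erythroid markers, Hba-a1 was at 16.3 FPKM in naïve neutrophils and 3.64 FPKM after LPS and Hbb-b1 at 8.37 against 3.49 FPKM, while Klf1 and Epor were listed at 0 after LPS and at 0.295 and 0.121 FPKM in naïve cells. The 3 eosinophil markers summed to 5.27 against 0.449 FPKM, and the 5 stem and progenitor markers to 7.85 against 3.23 FPKM. Going the other way, the T and NK cell marker Nkg7 was at 2.42 FPKM in naïve neutrophils and 21.7 FPKM after LPS. Of 4 monocyte markers tested, 1 was at least 2-fold higher after LPS (F13a1, 10.7 against 3.87 FPKM). Another 1 was at least 2-fold lower (Csf1r, 10.5 against 33.9 FPKM). The part of all these markers in the histone difference was not tested.

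Ym1+Ly6Chi and Ym1-Ly6Chi monocytes, which share the LPS treatment and differ by the Venus gate, differed in neither histone sum by 2-fold. The replication-dependent sum was 302 FPKM in Ym1+Ly6Chi and 249 FPKM in Ym1-Ly6Chi monocytes (1.21-fold higher, log2 ratio 0.28, interval 0.15 to 0.41), and the variant sum 2874 against 2961 FPKM (log2 ratio -0.04). Of 53 replication-dependent members tested, 6 were at least 2-fold higher in Ym1+Ly6Chi cells, against 1.38% of all genes, and 0 were at least 2-fold lower, against 1.18%. The median difference was 0.35 over these members and -0.06 over all genes. None of 9 variant members passed 2-fold (0 of 9, against 2.56% of all genes). The 6 were Hist1h1b, Hist1h2bm, Hist1h3b, Hist1h3c, Hist1h4m and Hist3h2bb-ps (by its symbol a pseudogene), none above 2.89 FPKM. With a minimum FPKM of 5 in either library the count was 0. Because Ym1-Ly6Chi is the shallowest library, single low members rest on few fragments there.

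The largest class difference between them was in replication-dependent H3. The 12 genes summed to 20.8 FPKM in Ym1+Ly6Chi and 9.40 FPKM in Ym1-Ly6Chi monocytes (2.21-fold higher, log2 ratio 1.14, interval 0.51 to 1.83), with naïve monocytes at 22.7 FPKM and LPS and naïve neutrophils at 5.14 and 7.93 FPKM. Hist1h3b was at 2.89 and 0.892 FPKM in Ym1+Ly6Chi and Ym1-Ly6Chi monocytes and Hist1h3c at 2.69 and 0.670 FPKM. H4 and H2B sums differed within counting error (log2 ratios 0.11 and 0.14), and H1 was 1.40-fold higher in Ym1+Ly6Chi cells. Of the variants, H2afx was 1.34-fold higher (log2 ratio interval 0.30 to 0.56) and H2afy 1.37-fold lower (interval -0.57 to -0.33) in Ym1+Ly6Chi monocytes. Neutrophil markers were at 8836 against 1301 FPKM summed over 8 genes, of which 6 were at least 2-fold higher in Ym1+Ly6Chi cells. The eosinophil marker Prg2 was listed at 0 in Ym1+Ly6Chi and at 28.0 FPKM in Ym1-Ly6Chi monocytes, and the erythroid marker Hba-a1 was at 10.3 against 2.08 FPKM. The 5 stem and progenitor markers summed to 3.12 against 9.96 FPKM and the 4 platelet markers to 4.09 against 0.620 FPKM. Their part in the histone values was not tested.

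Both LPS monocyte libraries were set against the same naïve monocytes, and so these 2 comparisons share a library. The naïve monocytes were Venus-, so Ym1+Ly6Chi monocytes differ from them by the gate as well as by LPS. These cannot be told apart in that comparison. In Ym1-Ly6Chi monocytes 8 of 55 replication-dependent members were at least 2-fold lower than in naïve monocytes, against 4.72% of all genes, and 1 (Hist3h2ba) was at least 2-fold higher, against 2.86%. The median difference there was -0.41 over the members and -0.00 over all genes. In Ym1+Ly6Chi monocytes 5 of 58 were lower, against 4.51%, and 4 were higher, against 2.59%, with a median of -0.07 over the members and -0.06 over all genes. The sum was 249 against 307 FPKM in the former comparison (log2 ratio -0.30) and 302 against 307 FPKM in the latter (-0.02). Of 10 variant members tested in each, H1fx (0 against 1.24 FPKM) passed 2-fold in Ym1-Ly6Chi monocytes, against 7.58% of all genes in either direction, and 0 did so in Ym1+Ly6Chi monocytes, against 7.1%. Markers of other cells differed as well. The stem and progenitor markers summed to 31.0 FPKM in naïve monocytes and to 9.96 and 3.12 FPKM in Ym1-Ly6Chi and Ym1+Ly6Chi monocytes. In the same order the eosinophil markers summed to 0.240, 29.4 and 0.031 FPKM and the platelet markers to 11.7, 0.620 and 4.09 FPKM. The neutrophil markers summed to 927, 1301 and 8836 FPKM, with S100a8 the largest part at 595, 1107 and 7993 FPKM. Of these 8 markers, 4 were at least 2-fold lower in Ym1-Ly6Chi than in naïve monocytes, against 4.72% of all genes, and 0 higher. Their median difference was -0.74. In Ym1+Ly6Chi monocytes 6 were at least 2-fold higher, against 2.59%, and 0 lower. The part of all these markers in the histone values was not tested.

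Hist1h1c was the clearest member in monocytes. It was at 9.58 FPKM in naïve, 19.7 FPKM in Ym1-Ly6Chi and 27.8 FPKM in Ym1+Ly6Chi monocytes, a difference from naïve cells of 0.97 and 1.45 on the log2(FPKM + 1) scale. The ratio of Ym1+Ly6Chi to naïve monocytes had an interval of 1.20 to 1.89 on the log2 scale. Hist3h2ba, an H2B gene of the small Hist3 cluster, was at 5.51 and 5.39 FPKM in Ym1+Ly6Chi and Ym1-Ly6Chi monocytes against 1.64 FPKM in naïve monocytes, and was listed at 0 in both neutrophil libraries. The sum of the Hist2 cluster was lower after LPS in both monocyte libraries, at 26.6 and 21.8 FPKM against 41.8 FPKM in naïve cells (log2 ratios -0.65 and -0.94, intervals -0.98 to -0.33 and -1.39 to -0.51). Of its 8 members tested in each, 3 were at least 2-fold lower, against 4.51% and 4.72% of all genes, and 0 were higher. In both comparisons the 3 were Hist2h2aa1, Hist2h2bb and Hist2h4. Summed with its copy Hist2h2aa2, Hist2h2aa1 was within counting error (log2 ratio intervals -1.36 to 0.07 and -1.86 to 0.08). Hist2h4 was at 1.05 FPKM in naïve monocytes and listed at 0 in both others. Hist2h2bb, at 5.79 FPKM in naïve monocytes against 1.32 and 0.739 FPKM, rested on few fragments. H3f3a was 1.34-fold lower in Ym1+Ly6Chi and 1.39-fold lower in Ym1-Ly6Chi monocytes than in naïve monocytes, while H3f3b was 1.25-fold and 1.19-fold higher.

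**Figure D4:**
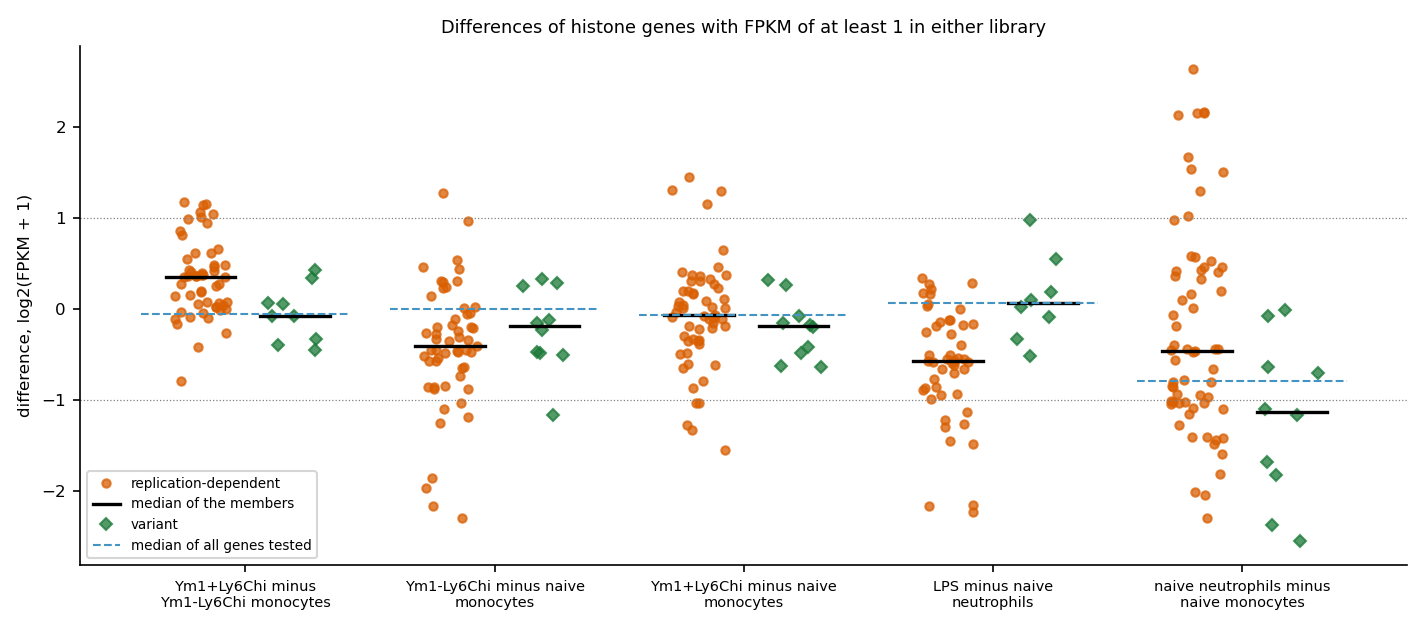
Differences on the log2(FPKM + 1) scale (y axis) of the members tested in each of the 5 comparisons (x axis), with circles for replication-dependent and diamonds for variant genes, black bars at the members' medians, blue dashes at the median of all genes tested and dotted lines at 2-fold. The replication-dependent median lies below that of all genes after LPS in neutrophils (-0.57 against 0.07) and above it for Ym1+Ly6Chi against Ym1-Ly6Chi monocytes (0.35 against -0.06).

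Genes of S phase and the cell cycle had another order of libraries than the replication-dependent histones on the FPKM scale. The 22 genes of this list, called the S phase list, include Pcna, the Mcm helicase genes and Rrm2, and also Ccnb1, Cdk1, Mki67 and Top2a. They summed to 2464, 2804 and 1703 FPKM in Ym1+Ly6Chi, Ym1-Ly6Chi and naïve monocytes and to 691 and 323 FPKM in LPS and naïve neutrophils. Naïve neutrophils, lowest for this list, were highest for the replication-dependent sum, and Ym1-Ly6Chi monocytes, highest for the list, had the lowest sum of the 3 monocyte libraries. The place of naïve neutrophils depends on the scale. As a share of the summed FPKM of the library the replication-dependent genes were at 0.0524% there, 0.0571% in naïve and 0.0548% in Ym1+Ly6Chi monocytes, 0.0440% in Ym1-Ly6Chi monocytes and 0.0235% in LPS neutrophils. The log2 ratio of the sum to that of naïve monocytes, 0.28 on the FPKM scale, was -0.13 with TPM scaling and 0.016 without the member of highest mean. After LPS in neutrophils 12 of 22 list genes were 2-fold higher or more, against 8.96% of all genes, and 0 were lower by as much, with a median of 1.26, where the replication-dependent median was -0.57. In naïve neutrophils 21 of 22 were at least 2-fold lower than in naïve monocytes, against 42.7% of all genes, with a median of -2.44 where that of all genes was -0.79. In Ym1-Ly6Chi monocytes 6 were at least 2-fold higher than in naïve monocytes, against 2.86% of all genes, with a median of 0.81, and in Ym1+Ly6Chi monocytes 2 were, against 2.59%, with a median of 0.47. Between the LPS monocytes the median was -0.37, with 1 gene at least 2-fold lower in Ym1+Ly6Chi cells, against 1.18%. The list was split there. Ccnb1 (0.56), Top2a (0.55), Mki67 (0.51), Cdk1 (0.45), Ccna2 (0.22) and E2f2 (0.07) were higher in Ym1+Ly6Chi cells. All its other genes were lower, with Cdt1 (-1.05) and Cdc6 (-0.90) furthest.

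**Figure D5:**
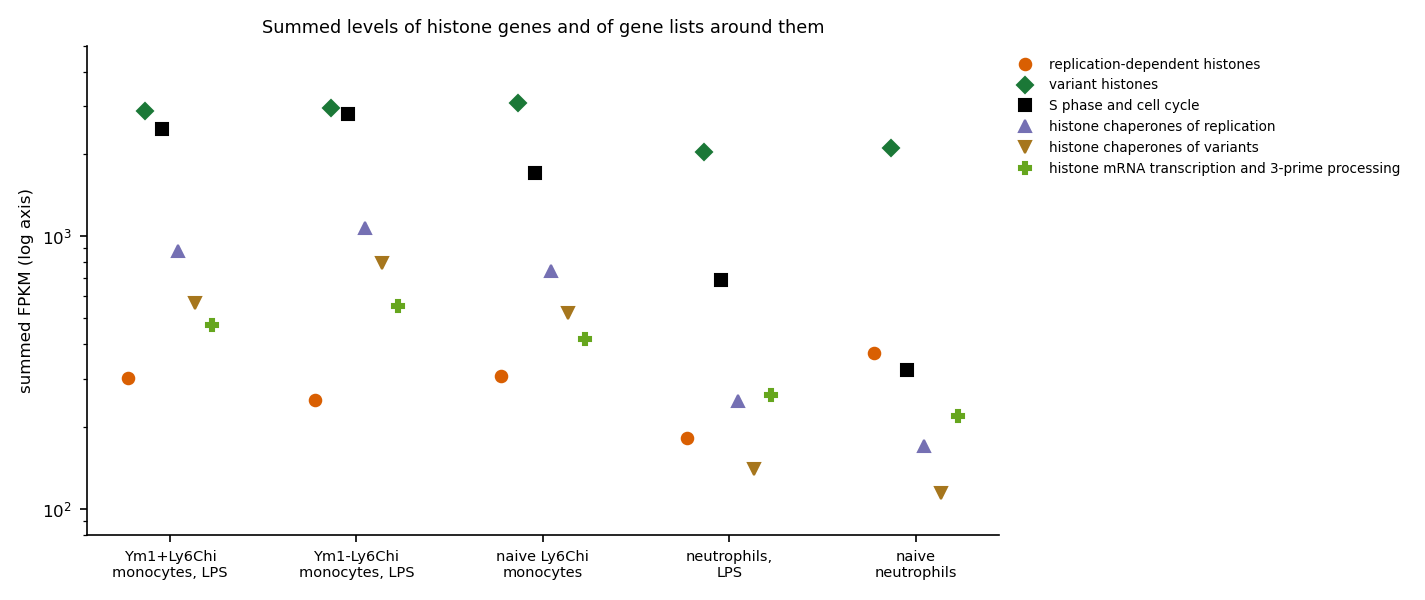
Summed FPKM (y axis, log scale) of the replication-dependent and variant histone genes and of 4 gene lists around them in the 5 libraries (x axis), with 1 symbol per sum. The S phase list runs from 2804 FPKM in Ym1-Ly6Chi monocytes to 323 FPKM in naïve neutrophils, where the replication-dependent sum is 373 FPKM, its highest on the FPKM scale though not as a share of the library.

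Genes that make and end histone mRNAs were also followed. Slbp, whose protein binds the stem-loop, was at 113, 152 and 99.8 FPKM in Ym1+Ly6Chi, Ym1-Ly6Chi and naïve monocytes and at 47.8 and 35.2 FPKM in LPS and naïve neutrophils. Npat, a coactivator of histone gene transcription, was at 5.25, 7.00 and 5.05 FPKM in the monocytes and at 1.06 and 1.13 FPKM in the neutrophils. Of the list of 15 genes found for transcription and 3′ processing, 14 were tested between naïve neutrophils and naïve monocytes and 7 were at least 2-fold lower in neutrophils (median -1.04), against 42.7% and a median of -0.79 over all genes. Under median-of-ratios scaling the median of the list was -0.44, where that of all genes was -0.16. In neutrophils after LPS 0 of 13 passed 2-fold in either direction (median 0.35), against 14.3% of all genes. In the 3 monocyte comparisons 0 of 15, 0 of 14 and 0 of 15 did, against 2.56%, 7.58% and 7.1%. At these shares a count of 0 in so short a list says little.

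Histone chaperones, which bring new histones to DNA, had the same order of libraries as the S phase list. The 10 chaperones of replication summed to 885, 1069 and 742 FPKM in Ym1+Ly6Chi, Ym1-Ly6Chi and naïve monocytes and to 247 and 169 FPKM in LPS and naïve neutrophils. In naïve neutrophils 8 of 10 were at least 2-fold lower than in naïve monocytes, against 42.7% of all genes (median -2.13), and after LPS 3 of 10 were at least 2-fold higher than in naïve neutrophils, against 8.96% (median 0.56), with Chaf1b, a subunit of CAF-1, at 10.7 against 3.50 FPKM. In Ym1-Ly6Chi monocytes 1 of 10, Chaf1b, was at least 2-fold higher than in naïve cells, against 2.86% of all genes. In Ym1+Ly6Chi monocytes 0 were, against 2.59%. Between the LPS monocytes 0 passed in either direction, against 2.56%. Of the 10 chaperones and remodellers of variants found, 3 were at least 2-fold lower in naïve neutrophils than in naïve monocytes (median -0.86), against 42.7% and a median of -0.79 over all genes. After LPS in neutrophils 1 of 10 was at least 2-fold higher (median 0.03), against 8.96%. In each of the 3 monocyte comparisons 0 of 10 passed 2-fold, against 2.56%, 7.58% and 7.1% of all genes in the order used above. Hira, a chaperone of H3.3, was at 11.4, 13.5 and 12.4 FPKM in the monocytes and at 7.91 and 6.64 FPKM in LPS and naïve neutrophils. Cenpa, the H3 variant of centromeres, whose symbol is outside the rule, was at 96.7, 86.4 and 67.0 FPKM in the monocytes and at 34.4 and 23.3 FPKM in the neutrophils.

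A list of 7 replication-dependent genes known to give polyadenylated forms was also followed. Between the naïve cells 4 of its 7 genes were at least 2-fold higher in neutrophils, against 10.8% of all genes tested. At least 2-fold lower was 1, against 42.7%. The median was 1.54, where the whole replication-dependent set had -0.46 and all genes -0.79. After LPS in neutrophils 4 of 7 were at least 2-fold lower, against 5.35% of all genes, with a median of -1.22 where all genes had 0.07. The list overlaps the 5 high members by Hist1h1c, Hist1h2bc, Hist2h2aa1 and Hist2h2aa2, while Hist1h2ac, Hist3h2a and Hist2h2be stayed at or below 5.17 FPKM in all libraries. It was written with the results of these libraries known and is therefore no independent evidence. In the 3 monocyte comparisons 0 of 5, 1 of 6 and 2 of 6 genes tested passed 2-fold in either direction. Over all genes the shares were 2.56%, 7.58% and 7.1%. The order is Ym1+Ly6Chi against Ym1-Ly6Chi, Ym1-Ly6Chi against naïve and Ym1+Ly6Chi against naïve. Grouped instead by the poly(A) signal found in the annotated transcripts, the 17 replication-dependent members with a signal made up 27.9%, 30.4% and 19.4% of the replication-dependent FPKM in Ym1+Ly6Chi, Ym1-Ly6Chi and naïve monocytes and 24.1% and 21.7% in LPS and naïve neutrophils, so that this split did not set naïve neutrophils apart.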

How the data were processed

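RNA-seq libraries of 5 sorted BM populations were used, 1 for each group in the labels. The authors deposited FPKM per gene symbol. Cufflinks 2.1.1, TopHat2 2.0.8 and mm9 are listed in the submitters' processing notes. The sources used here do not give the annotation, options or strand setting. As FPKM is scaled by length and depth, count models were left out. Values were read with pandas 2.3.3 and Python 3.11.15. Genes with FPKM of at least 1 in either library were compared as differences of log2(FPKM + 1) over all 23234 genes. Depth was estimated from steps between low values of genes with 1 transcript of 1000 to 6000 nt, after a length correction of 160 nt chosen with the data in view. Intervals came from scipy 1.17.1. Named members were those with FPKM of at least 10 in any library, and others are named where counts are small, chosen after their values were seen. The members and lists were chosen with earlier results of these data known. Calls and the depth estimate were tested on simulated data. The simulation used the same length correction as the depth estimate and so cannot check that correction. Its changed genes had a mean FPKM of at least 10 and no shared reads, so it does not cover low members or near-identical copies. Alternatives were other scalings, pseudocounts, filters, thresholds and left-out members. Mizf and Srcap were not found among the symbols. Of the erythroid markers, 1 is not reported here.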

Additional observations from a re-analysis of the deposited data

Results flagged for a closer look

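Members were singled out if an LPS monocyte library and LPS neutrophils lay at least 2-fold apart from their naïve cells in opposite directions. Those found came from Ym1+Ly6Chi monocytes alone. As naïve monocytes were Venus-, LPS and the Venus gate cannot be told apart there. Hist1h1c was higher in Ym1+Ly6Chi than in naïve monocytes by 1.45 on the log2(FPKM + 1) scale (27.8 against 9.58 FPKM), and lower in LPS than in naïve neutrophils, at -1.22 (18.8 against 45.3 FPKM). Hist1h4m was at 1.15 in the former comparison (1.23 FPKM against a value near 0) and at -1.30 in the latter (a value near 0 against 1.46 FPKM), values that rest on very few fragments. In Ym1-Ly6Chi monocytes, which share the Venus- gate with naïve monocytes, Hist1h1c was higher by 0.97, short of 2-fold on this scale. Hist1h4m was near 0 in both of these libraries. The difference between the cell types was not tested, since each population had 1 library.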

How the results depend on the processing

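Of the counts and sums under each alternative, 117 stayed close to the main value and 53 did not. A count was close if equal or of like size. A sum was close within its counting interval, which allows a change of sign near 0. The variant log2 ratio of Ym1+Ly6Chi to Ym1-Ly6Chi monocytes (-0.043) became 0.0007 with median-of-ratios scaling. The replication-dependent one of Ym1+Ly6Chi to naïve monocytes (-0.021) became 0.034 with that scaling, and 0.023 without members that share at least 50% of their 50-base words. Of the replication-dependent and variant sums, 1 was past 2-fold (replication-dependent, LPS against naïve neutrophils). It kept its direction but was at -0.98, just under 2-fold, without the member of highest mean. Sums under 2-fold changed sign in some settings (values above and below). The cause of each move was not tested unless the alternative itself leaves members out. Counts are of replication-dependent members unless variants are named. For Ym1+Ly6Chi against Ym1-Ly6Chi monocytes the 6 higher became 11 with TPM scaling, 3 with median-of-ratios scaling, 11 with a pseudocount of 0.1, and 0 with an FPKM of at least 5 or a 4-fold threshold, and the 0 lower became 1 with a pseudocount of 0.1.

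For Ym1-Ly6Chi against naïve monocytes the 1 higher became 2 with a pseudocount of 0.1 and 0 at 4-fold. The 8 lower became 13 with TPM scaling, 16 with the pseudocount of 0.1, 1 with an FPKM of at least 5, 2 at 4-fold, and 5 without members that share at least 50% of their 50-base words, an alternative added after the data were seen. The 1 variant apart became 0 with an FPKM of at least 5, at 4-fold, or without members listed at 0. The log2 ratio of the variant sum became -0.13 with TPM scaling and 0.19 without H3f3a.

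For Ym1+Ly6Chi against naïve monocytes the 4 higher became 2 with an FPKM of at least 5 and 0 at 4-fold. The 5 lower became 3 with median-of-ratios scaling, 8 with the pseudocount of 0.1, 1 with an FPKM of at least 5 and 0 at 4-fold. The variants apart went from 0 to 1 with the pseudocount of 0.1, and the log2 ratio of the variant sum became -0.041 with median-of-ratios scaling and 0.098 without H3f3a.

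For LPS against naïve neutrophils the log2 ratio of the replication-dependent sum became -1.16 with TPM scaling. The 9 lower became 15 with TPM scaling, 19 with the pseudocount of 0.1, 5 with an FPKM of at least 5, 3 at 4-fold and 4 without members that share words. The 0 higher became 1 with TPM or median-of-ratios scaling, and the variants apart 1 with the pseudocount of 0.1. The variant sum became -0.17 with TPM scaling, -0.10 with median-of-ratios scaling and 0.027 without H3f3a.

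For naïve neutrophils against naïve monocytes the replication-dependent sum became -0.13 with TPM scaling, 0.99 with median-of-ratios scaling and 0.016 without the member of highest mean. The variant sum became -0.95, 0.16 and -1.10 in the same order. The 10 higher became 5 with an FPKM of at least 5, at 4-fold, or without members that share words. The 20 lower became 7 with median-of-ratios scaling, 9 with an FPKM of at least 5, 3 at 4-fold and 13 without members that share words, and the variants apart went from 6 to 2 at 4-fold.

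No paired analysis was possible because each population had 1 library. Leaving out a replicate was not run for the same reason. Most replication-dependent members rest on few fragments, and single low members are less firm than sums.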
